A study of Mus musculus with 9 samples.

Results

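The gene T encodes Brachyury, a T-box transcription factor. The stretch of mouse chromosome 17 around it was followed through 9 chromatin immunoprecipitation sequencing (ChIP-seq) libraries. Its members were all windows of chr17:8550000-8720000 in the mm9 build, with the gene taken to lie near 8627000 to 8635500. Of 2654924 windows in the deposited counts, 169 lay in this stretch, and 167 of them passed a filter on input level. Positions below are in kb from 8627000, negative upstream of the gene, which the RefSeq table of the GRCm38.p6 build places on the plus strand. That start is rounded, no gene model in mm9 was used here, and exons and introns were not placed.

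Mouse embryonic stem cells were converted to epiblast-like cells, whose aggregates in suspension, kept with leukaemia inhibitory factor and given BMP4 and WNT3A or not, move towards primordial germ cell-like cells. The labels call all cells EpiLC and give C57BL/6 as the strain, and the cytokines of each library are not known here. The immunoprecipitated libraries were TCF1 in the Blimp1-mVenus reporter line (BV), T in the Prdm14-mVenus reporter line (PV), SMAD1 in BV after 12, 24 or 36 h, and SMAD1 in PV after 36 h. The inputs, DNA with no antibody, were titled BV, PV and BVSC, the last also labelled as the BV line. Each group was 1 library, so no difference below has a replicate check, and intervals cover counting error only. T and TCF1 were profiled in different lines and their titles name no time.

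In the primitive streak, where mesoderm forms, T is switched on by WNT signals: beta-catenin enters the nucleus and works through TCF/LEF factors, which recognise sequences with a CTTTG core. TCF1 is the TCF/LEF factor encoded by Tcf7, and SMAD1 carries the BMP signal to chromatin. In mouse embryos T is needed for posterior mesoderm and for the notochord, and enhancers of the gene include one for the notochord that lies far upstream. The title of the series names T as a mesodermal factor that specifies germ cell fate.

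The start of the gene is shown first, because TCF1 signal was highest there. The sequence is the RefSeq promoter of T at chr17:8434173-8434472 on the plus strand of GRCm38.p6, 250 bases before the start and 50 from it, with CTTTG or its reverse complement CAAAG in capitals. These coordinates belong to another build than the windows and were not converted.

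T promoter: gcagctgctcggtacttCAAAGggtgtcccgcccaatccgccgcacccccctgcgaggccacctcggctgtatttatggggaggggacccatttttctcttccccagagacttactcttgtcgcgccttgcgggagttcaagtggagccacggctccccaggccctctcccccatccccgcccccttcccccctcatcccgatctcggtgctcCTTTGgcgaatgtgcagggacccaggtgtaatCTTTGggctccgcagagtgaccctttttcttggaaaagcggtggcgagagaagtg

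The promoter held 3 copies of the CTTTG core over both strands, beginning at bases -233, -37 and -5 from the RefSeq start. At least 1 copy was found in 54% of 32817 RefSeq promoters of the same length and at least 3 copies in 5.54%. The longer form CTTTGAT, found in 3.73% of promoters, did not occur. The T-box core GGTGT occurred 2 times, at -228, directly beside the first CTTTG core and without overlap, and at -13; 41.6% of promoters held it and 11% held at least 2. The fuller T-box site GGTGTGA and the SMAD motifs GTCTG and GGCGCC were not in this stretch; 3.98%, 49.6% and 11.9% of promoters held them. G and C made up 61.7% of the bases, against a median of 52.7% over all promoters. Of the WNT response genes listed beside T, 6 of 9 had a promoter in the table, and CTTTG occurred in 2 of those, Sp5 and Lef1. Of the streak and mesoderm genes, 8 of 10 had one and 5 held the core, among them Eomes and Msgn1, and for BMP response genes the figures were 3 of 5 and 1, Smad6. These matches describe letters in a short window and do not mark binding sites.

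The libraries differed in depth, from 14925074 reads for SMAD1 at 36 h in BV to 43354004 for SMAD1 at 36 h in PV, with 27360924 for TCF1 and 20736671 for T; the inputs held 42532115 (PV), 46750433 (BVSC) and 134657262 (BV). Each window spans 2 kb and the next one begins 1 kb further on. Counts were divided by the library's mean over all autosomal windows, so that 1 is the genome average, and this is called the scaled level. Enrichment is the scaled level of a library over that of the input of its line, with 0.5 added to both. The median scaled level over the locus was 1.26 in input BV, 1.31 in input PV and 1.14 in input BVSC, beside 1.10, 1.11 and 1.03 over chromosome 17. Median enrichment over the locus lay above that of all autosomal windows in every library, at 1.19 against 0.975 for T, 1.11 against 0.98 for TCF1 and between 1.07 and 1.14 against 0.979 to 0.988 for SMAD1. The 2 windows left out, at 41 and 42 kb, held 1 to 6 counts in the immunoprecipitated libraries and at most 25 in an input.

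TCF1 marked the start of T. The window that spans the start, 8626001 to 8628001, held 101 TCF1 counts against 85 in the deeper input BV, an enrichment of 3.97 and a plain ratio of 5.82 (exact 95% interval 4.32 to 7.86). The next window, 8627001 to 8629001, held 94 against 103 (enrichment 3.29), and the one before, 8625001 to 8627001, held 51 against 134 (1.62). Enrichment was at least 3.97 in 0.00325% of 2244093 autosomal windows. It lay just short of 4-fold, a level reached by 0.00303% of windows, in 42 merged regions none of which lay in the locus.

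**Figure D1:**
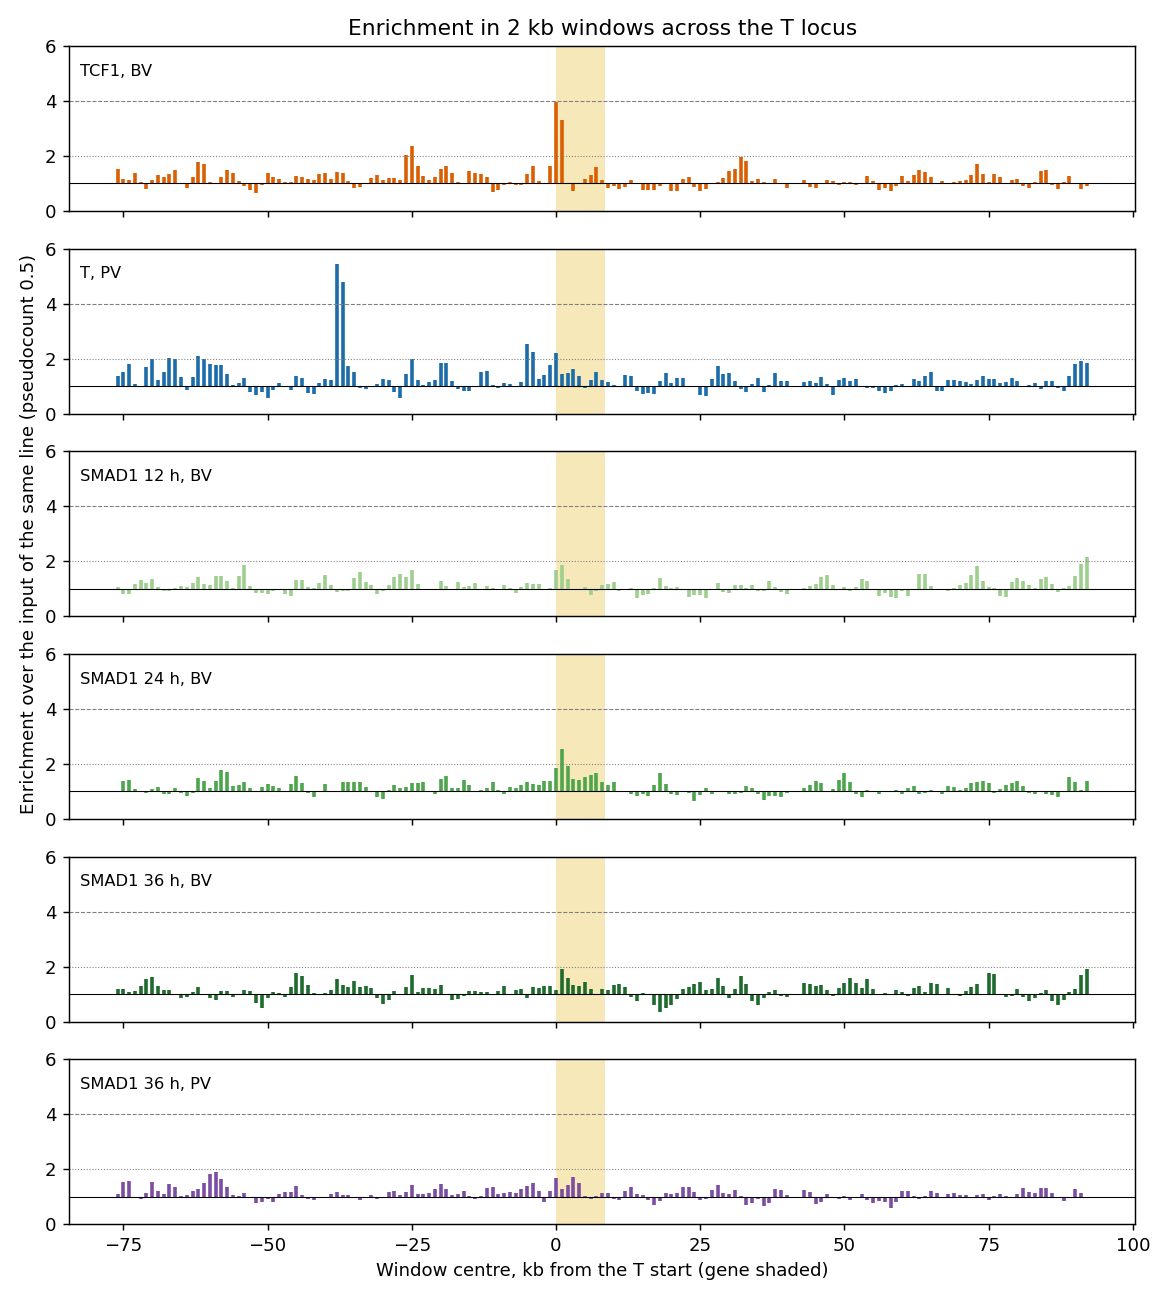
Enrichment over the input of the same line (vertical axis, pseudocount 0.5) in 2 kb windows against distance of the window centre from the T start in kb, 1 panel for each immunoprecipitated library, with the T gene shaded and dotted and dashed lines at 2-fold and 4-fold. TCF1 is highest at the start (3.97), T at -38 kb (5.44), and SMAD1 stays at or below 2.56 in all 4 libraries.

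Overlapping windows could be split into 1 kb bins in 8 of the 9 libraries, and TCF1 was highest in the bin 8627001 to 8628001, at +0.5 kb. There TCF1 had 72 counts against 36 in input BV, a scaled level of 6.66 against 0.68. The enrichment was 6.07 and the ratio 9.80 (6.48 to 15.1). The bin before it, at -0.5 kb, was raised too, with 29 counts against 49 (enrichment 2.23, ratio 2.90, 1.77 to 4.68). The bin after it, at +1.5 kb, held 22 against 67, a ratio of 1.61 (0.946 to 2.64) whose interval included 1. At 4-fold, 1 of the 168 bins of the locus that passed the filter was called for TCF1, this one, against 0.00473% of autosomal bins, and 5 were at 2-fold or more, against 0.742%.

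The input was low at this bin, and SMAD1 of the same line also stood above it. SMAD1 in BV had 15, 25 and 9 counts after 12, 24 and 36 h, with ratios to input BV of 3.08 (1.57 to 5.76), 4.00 (2.31 to 6.86) and 2.25 (0.953 to 4.76), the last with an interval that included 1. Set against SMAD1 of the same line instead of the input, TCF1 was still higher: 3.18 times at 12 h (1.81 to 5.98), 2.45 times at 24 h (1.53 to 4.02) and 4.36 times at 36 h (2.17 to 9.91). All 3 intervals lay above 1, but the bin was chosen as the highest for TCF1, and the intervals do not allow for that choice. At -0.5 kb, TCF1 stood at 2.14 times SMAD1 at 12 h (0.985 to 5.13), an interval that included 1. It stood at 2.46 times SMAD1 at 24 h (1.17 to 5.66) and 5.26 times SMAD1 at 36 h (1.63 to 27.0), the last on 3 SMAD1 counts. In the 2 kb window over the start, TCF1 enrichment with SMAD1 at 12 h as the background was 2.38. In the bin at +0.5 kb, input PV had a scaled level of 1.015 against 0.68 for input BV. That ratio, 1.49 (0.786 to 2.73), had an interval that included 1. What the base composition of the promoter adds to the low input BV was not tested.

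In PV the same bin held 16 T counts and 25 SMAD1 counts against 17 in the input. Their ratios, 1.93 for T (0.911 to 4.05) and 1.44 for SMAD1 (0.747 to 2.84), had intervals that included 1. The interval of T lay wholly below that of TCF1, each over the input of its own line, in a bin chosen as the highest for TCF1.

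**Figure D2:**
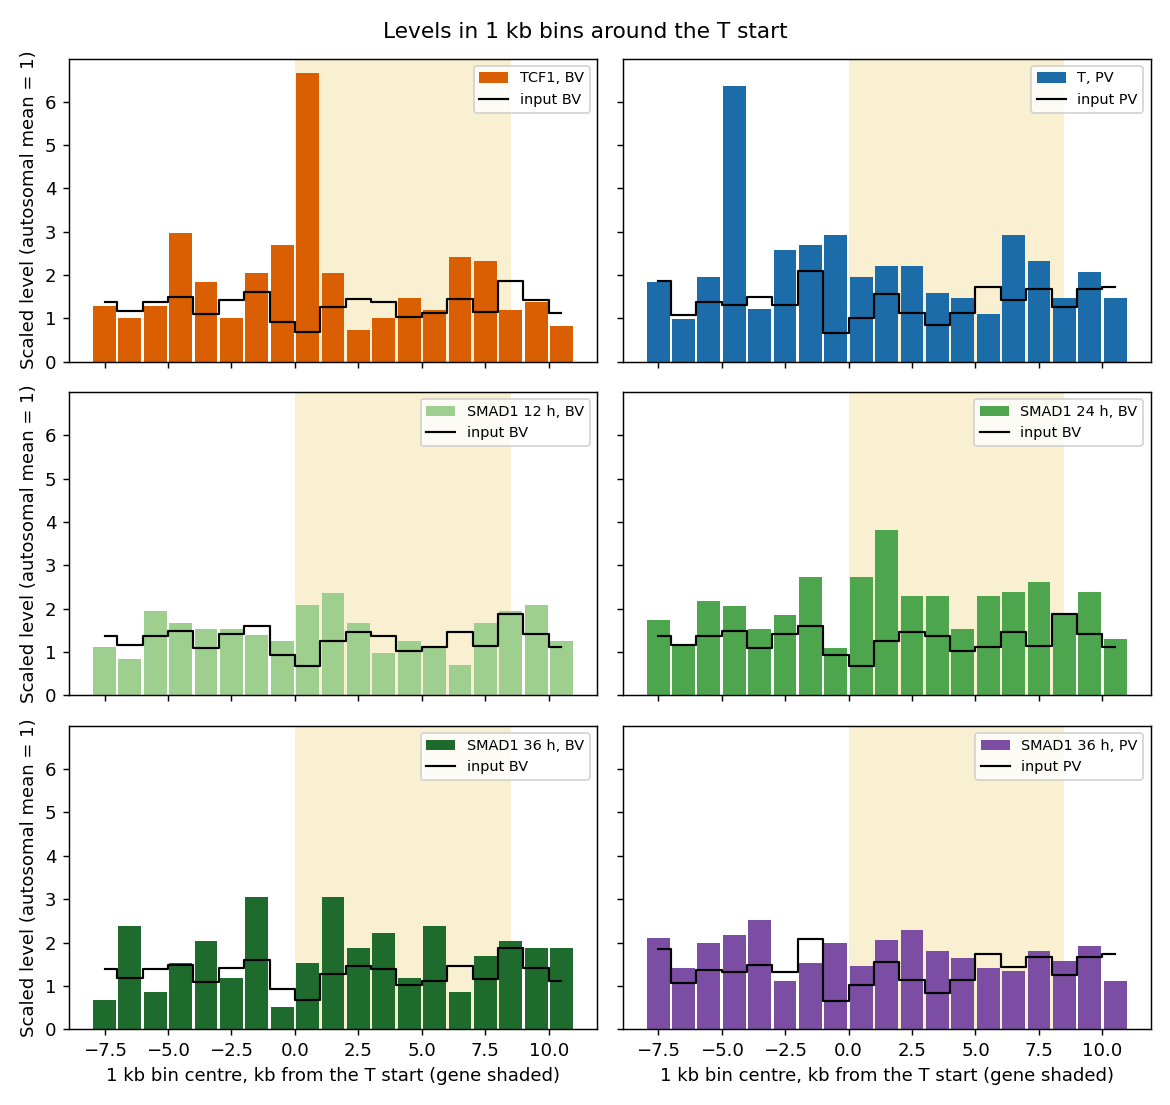
Scaled level (vertical axis, autosomal mean = 1) in 1 kb bins around the T start, as bars for each immunoprecipitated library and a black line for the input of its line, with the gene shaded. TCF1 stands at 6.66 in the bin at +0.5 kb, where input BV is 0.68, and T stands at 6.35 in the bin at -4.5 kb.

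The T protein was found upstream of its own gene. Its highest windows were 8588001 to 8590001, with 156 counts against 45 in input PV (enrichment 5.44, ratio 7.09, 5.06 to 10.1), and 8589001 to 8591001, with 166 against 58 (4.77, ratio 5.86, 4.32 to 8.04). These were the only windows of the locus at 4-fold or more in any library, against 0.0501% of autosomal windows for T. For SMAD1 the share of autosomal windows at 4-fold was 0.0103% at 12 h, 0.00432% at 24 h, 0.00107% in BV after 36 h and 0.00602% in PV, and none lay in the locus. The T windows at 4-fold formed 1 region of 3 kb. It ranked 294 among the 670 merged regions of T at this level by its highest window, and the median region had 5.19. The region of the locus was therefore near the middle of the T regions in strength.

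Nearly all of this signal lay in the bin 8589001 to 8590001, at -37.5 kb. T had 142 counts there against 28 in input PV, a scaled level of 17.4 against 1.67 (enrichment 8.22, ratio 10.4, 6.88 to 16.2), and the bins on either side had 14 and 24 T counts. It was the only bin of the locus at 4-fold for T, against 0.0728% of autosomal bins, while 15 of 168 were at 2-fold or more, against 1.72%. SMAD1 in the same line had 32 counts, and T was 9.27 times higher (6.28 to 14.1). SMAD1 in PV stood at 1.12 times its input (0.653 to 1.93). In BV, TCF1 had 25 counts against 63 (ratio 1.94, 1.17 to 3.13), and SMAD1 had 8, 16 and 16 at 12, 24 and 36 h (ratios 0.938, 1.47 and 2.28, the last from 1.23 to 4.00). The interval of T lay above those of the other 5 libraries at this bin. The bin was chosen as the highest for T, and the intervals do not allow for that choice. Whether the bin belongs to the known notochord enhancer was not determined, since no element was placed in mm9.

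A second, weaker T signal lay nearer the gene. The window 8621001 to 8623001 held 68 T counts against 45 in input PV (enrichment 2.52, ratio 3.09, 2.09 to 4.61). Within it the bin at -4.5 kb, 8622001 to 8623001, held 52 against 22 (enrichment 3.78, ratio 4.84, 2.89 to 8.36). T was 2.94 times higher there than SMAD1 of the same line (1.89 to 4.61), which had 37 counts. TCF1 had 32 counts against 79 in input BV (ratio 1.98, 1.27 to 3.03), and SMAD1 in BV had 12, 19 and 9 counts at 12, 24 and 36 h, with all 3 intervals including 1. TCF1 and T were thus both above their inputs at -4.5 kb. Against SMAD1 of its line TCF1 stood at 1.77 (12 h, 0.887 to 3.77), 1.43 (24 h, 0.786 to 2.67) and 1.94 (36 h, 0.903 to 4.61), all with intervals that included 1.

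T was also raised around the start, where SMAD1 of the same line was raised as well. The window 8626001 to 8628001 held 40 T counts against 28 in input PV (enrichment 2.20, ratio 2.92, 1.76 to 4.92), and 0.287% of autosomal windows were at least as high. SMAD1 in PV held 59 counts in that window, 2.06 times its input (1.30 to 3.36). Against that library T stood at 1.42 (0.924 to 2.15), an interval that included 1. In the bin at -0.5 kb, 8626001 to 8627001, T had 24 counts against 11 in input PV (enrichment 2.97, ratio 4.46, 2.11 to 10.1; 0.173% of autosomal bins were as high), close to its ratio at -4.5 kb. SMAD1 in PV had 34 counts there (enrichment 2.15, ratio 3.03, 1.5 to 6.62), its highest bin in the locus, and T stood at 1.48 times that library (0.837 to 2.56). The scaled level of input PV was 0.657 in this bin, and the part of this low input in both ratios was not tested.

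A further place at -25.5 kb was raised in several libraries. TCF1 had 41 counts against 55 in input BV in the bin 8601001 to 8602001 (enrichment 2.79, ratio 3.65, 2.38 to 5.57). T had 31 against 24 in input PV (ratio 2.64, 1.5 to 4.71). SMAD1 had 16, 14 and 15 counts at 12, 24 and 36 h in BV (ratios 2.15, 1.47 and 2.45) and 43 in PV (1.75, 1.04 to 3.02). TCF1 was 1.70 times SMAD1 at 12 h (0.933 to 3.24), 2.49 times SMAD1 at 24 h (1.33 to 4.94) and 1.49 times SMAD1 at 36 h (0.807 to 2.89), so at this place only the 24 h comparison had an interval above 1.

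**Figure D3:**
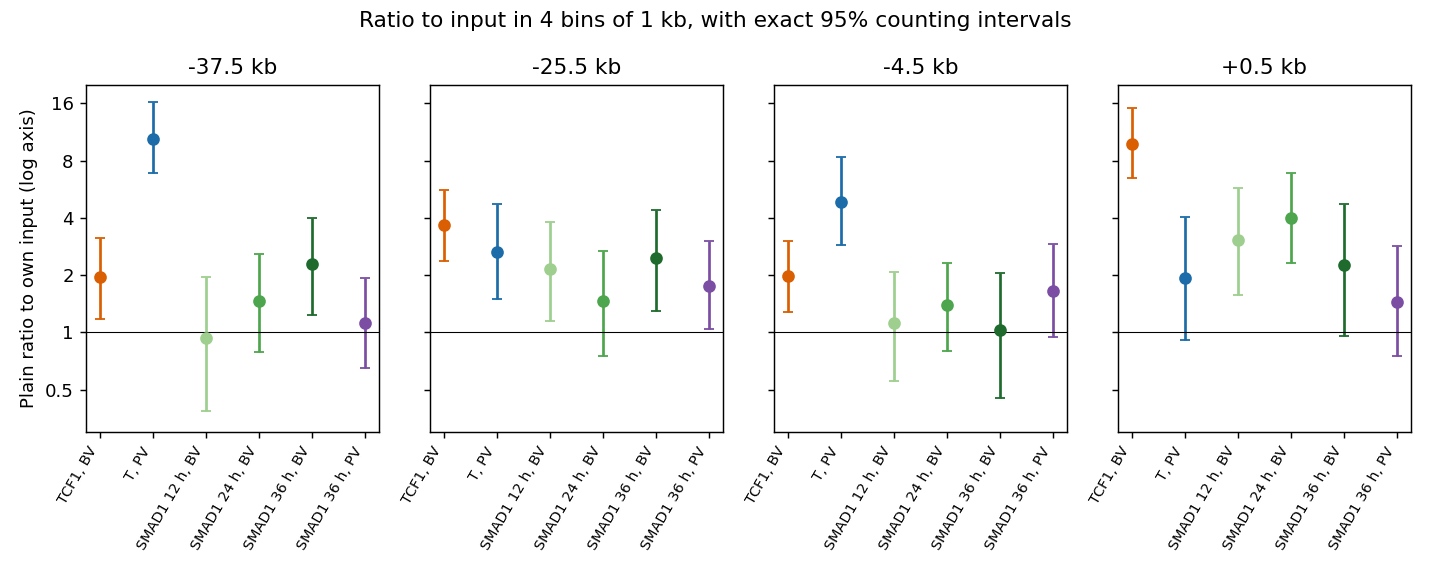
Plain ratio to the input of the same line (vertical log axis) with exact 95% counting intervals, for the 6 immunoprecipitated libraries in 4 bins of 1 kb named by their centre in kb from the T start. T leads at -37.5 kb (10.4) and -4.5 kb (4.84), TCF1 leads at +0.5 kb (9.80), and the intervals of all 6 libraries overlap at -25.5 kb. The bins were chosen for high TCF1 or T signal.

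Over the whole locus, 7 of 167 windows were at 2-fold or more for T (0.482% of autosomal windows) and 4 for TCF1 (0.102%). For TCF1 these were the windows at 0 and 1 kb and at -26 and -25 kb; the lowest had 2.04 and the next below the threshold, at 32 kb, had 1.98. For T they lay at -67, -62, -38, -37, -5, -4 and 0 kb; the lowest had 2.02 and the next below, at -25 kb, had 1.99. Where SMAD1 of the same line served as background, the T windows at -38 and -37 kb and the TCF1 window at the start were the only ones left. Downstream of the gene, where 10 windows within 10 kb and 71 beyond passed the filter, neither T nor TCF1 had a window at 2-fold. Having none is near the autosomal shares of 0.482% for T and 0.102% for TCF1, and does not mark that side as unusual.

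SMAD1 had no strong window in the locus. It reached 2-fold in 1 window at 12 h, at 92 kb (31 counts against 78 in input BV, enrichment 2.15; 0.172% of autosomal windows), and in 1 at 24 h, 8627001 to 8629001 (60 counts against 103, enrichment 2.56, ratio 3.36, 2.40 to 4.66; 0.0354%). After 36 h no window reached it in PV, where the highest had 1.91, at -59 kb (0.0606% of autosomal windows), or in BV, where the highest had 1.92, at 92 kb (0.0532%). In the window over the start, SMAD1 enrichment in BV was 1.67 (12 h), 1.85 (24 h) and 1.17 (36 h), and in PV it was 1.66.

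At 24 h, SMAD1 was raised over the body of T as a whole. Summed over the 9 bins from the start to the end of the gene, SMAD1 in BV had 99, 200 and 99 counts after 12, 24 and 36 h, against 603 in input BV, and the ratios were 1.21 (0.970 to 1.5), 1.91 (1.62 to 2.25) and 1.48 (1.18 to 1.83). SMAD1 at 36 h in PV had 263 counts against 197 in input PV (1.31, 1.08 to 1.58). Over the other 159 bins of the locus the ratio was between 1.11 and 1.15 in all 4 libraries. Over input BV or PV, only at 24 h did the interval over the gene lie wholly above that of the rest of the locus. It also lay above the interval over the gene at 12 h. The input enters both SMAD1 intervals, and whether those at 12 and 24 h overlapped depended on which input was used. The ratio of 24 h over 12 h given below uses no input. Another sum took 5 windows over the gene. They do not cover the same stretch as the 9 bins, with 678 counts in input BV against 603. There SMAD1 over input BVSC stood at 1.524 (1.198 to 1.932) at 12 h and 2.318 (1.902 to 2.827) at 24 h. These intervals overlapped. Over input BV the same windows gave 1.242 (1.009 to 1.516) and 1.888 (1.616 to 2.201), with no overlap. Both 12 h intervals over these windows lay above 1, whereas the one over the 9 bins included 1. The rest of the locus was not summed over input BVSC. Whether SMAD1 behaved alike over other genes was not tested.

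Between times, SMAD1 over the gene was 1.58 times higher at 24 h than at 12 h (1.23 to 2.03), in 8 of 9 bins. The rest of the locus stood at 1.01 (0.95 to 1.08), and 0.923% of 214167 autosomal runs of 9 bins had as high a ratio. Between 36 and 12 h the ratio was 1.22 (0.913 to 1.63), and between PV and BV at 36 h it was 0.914 (0.723 to 1.16), both with intervals that included 1. The rise at 24 h was spread along the gene, at 1.63 without its first 2 bins and 1.59 without its first 4. At the window over the start alone, no interval of these ratios excluded 1: 1.14 for 24 over 12 h (0.659 to 2.00), 0.609 for 36 over 12 h (0.278 to 1.27) and 1.69 for PV over BV at 36 h (0.900 to 3.46). Within that window, the bin at -0.5 kb had 34 SMAD1 counts in PV against 3 in BV at 36 h. The ratio of PV over BV there was 3.90 (1.227 to 19.85), an interval above 1 that rests on 3 counts. Both ratios between times at that bin had intervals that included 1. The sum over the gene was chosen after its values were seen.

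**Figure D4:**
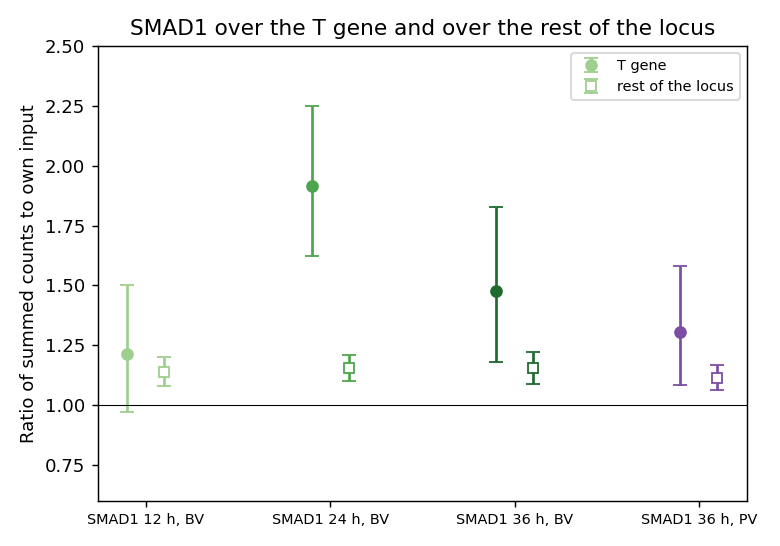
Ratio of summed SMAD1 counts to the input of the same line (vertical axis, starting at 0.6) over the 9 bins of the T gene (filled circles) and over the other 159 bins of the locus (open squares), with exact 95% counting intervals. Over the gene the ratio is 1.21, 1.91 and 1.48 in BV after 12, 24 and 36 h and 1.31 in PV, whereas the rest of the locus stays between 1.11 and 1.15.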

How the data were processed

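The authors deposited raw read counts per window, 1 library per table; that they are not normalized is read from the values. The submitters' processing notes name Bowtie 0.12.8 as a tool and mm9 as the build. How duplicates and reads with several matches were handled is not given in the sources used here. Coordinates are as deposited. All autosomal windows set the scale, with their mean put at 1 in each library. Windows were kept at a mean scaled input of at least 0.25 with no input over 3, and enrichment used a pseudocount of 0.5 over the input of the same line. Plain ratios carry exact (Clopper-Pearson) 95% intervals of the split of both counts (scipy 1.17.1). PCR copies are not separate molecules, so intervals cover counting error only.

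Windows overlap, so each is the sum of 2 bins, and bins followed from the chromosome start by differences. On chromosome 17 none came out below 0 in 8 libraries, whereas 47.6% did for input BVSC, whose bins were not used. Named windows were those over the start, those at 4-fold, and the 3 highest in each library. The 4 bins shown are the highest within the leading windows of TCF1 and T. That choice favours the library it was made on, and the intervals do not allow for it. Members and lists were chosen with earlier results of these data known. Intervals and thresholds were tested on simulated data.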

Additional observations from a re-analysis of the deposited data

How the results depend on the processing

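Of 170 values under an alternative (enrichments over the start, at the highest window and at the upstream T window, and SMAD1 ratios), 167 stayed inside the counting interval of the main value. For enrichments that interval is on the enrichment scale: for TCF1 in the window over the start it was 2.945 to 5.361, not that of the plain ratio. Some values repeat, since the upstream T window is also the highest T window. Thinning could not move SMAD1 at 36 h in BV, the shallowest library. Its enrichments over input BV stayed the same, so that input kept its full depth. The exceptions came with SMAD1 of the same line as background, chosen after seeing the data: TCF1 was 2.38 in the window over the start, which was also its highest window in the locus, and T was 1.32 there. Thinning moved a pair of values near 1 across 1 in the window 8625001 to 8627001, SMAD1 at 12 h to 0.909 (1.03 in the main setting) and the 36 h SMAD1 ratio of PV over BV to 1.24 (0.983). The upstream T window lay between 4.49 and 6.67 under all alternatives. Over input BVSC the highest SMAD1 windows in BV had 2.31 (12 h), 2.99 (24 h) and 2.92 (36 h). In the main setting they had 2.15, 2.56 and 1.92. TCF1 at the start was 4.29 over input BVSC, 4.03 over the mean of 3 inputs and 5.29 with a pseudocount of 0.1, past 4-fold. It was 3.15 with a pseudocount of 1 and 3.45 when the immunoprecipitated libraries were thinned to one depth.

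Counts of windows moved more. For T, main count 7, there were 21 with a pseudocount of 0.1, 3 with a pseudocount of 1, 11 after thinning, 2 with SMAD1 as background, 30, 2 and 2 at thresholds of 1.5, 3 and 4, and 4 and 3 in either set of every other window. For TCF1, main count 4, there were 7 with a pseudocount of 0.1, 1 with SMAD1 as background, 17, 2 and 0 at thresholds of 1.5, 3 and 4, and 2 and 2 in every other window. For SMAD1 at 12 h, main count 1, there were 4 over input BVSC, 5 and 0 with pseudocounts of 0.1 and 1, 12, 0 and 0 at the 3 thresholds and 0 in one set of every other window. For SMAD1 at 24 h, main count 1, the counts were 6, 4 with a pseudocount of 0.1, 13, 0 and 0 at the thresholds and 0. For SMAD1 at 36 h, main count 0, BV had 5 over input BVSC, 5 with a pseudocount of 0.1 and 16 at a threshold of 1.5, and PV had 2 with a pseudocount of 0.1, 1 after thinning and 9 at 1.5. Every other window and stricter thresholds leave fewer windows by construction. By construction too, a threshold of 1.5 or a pseudocount of 0.1 can only add windows, and a pseudocount of 1 can only remove them. The cause of the other moves was not tested. No paired analysis was possible because each group has 1 library. Depth limits single bins most: 9 counts at 36 h in BV gave an interval of 0.953 to 4.76.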
